A study of Mus musculus with 36 samples.

Results

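The integrins described here are 10 genes of the keratinocyte surface: the α subunits Itga2, Itga3, Itga5, Itga6 and Itgav and the β subunits Itgb1, Itgb4, Itgb5, Itgb6 and Itgb8. They were chosen by name from the gene column of the deposited count table, which holds 55358 genes, and 9 of the 10 were among the 15114 genes with enough reads to be tested. The exception was Itgb8, with 27 reads in all and reads in 7 of 36 libraries. RNA was sequenced from murine keratinocytes of 3 kinds. WT cells came from newborn Pkp4+/+ mice and PKP4-KO cells from Pkp4-/- mice. The Rescue line was made from PKP4-KO cells by lentiviral transduction of GFP-tagged human PKP4 and puromycin selection, and overexpressed the transgene. Cells of each kind were kept in low calcium medium (LCM) or high calcium medium (HCM) and taken after 24 h or 72 h, which gave 12 groups of 3 libraries. The targeted Pkp4 allele lacks an exon, the mice were on a C57BL/6J background, and the cells were grown on collagen I. Whether the 3 libraries of a group came from separate cultures or animals is not given in the sources used here, so p-values measure the spread between libraries, which may be technical.

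An integrin is a heterodimer of an α and a β subunit that spans the plasma membrane, binds a ligand in the extracellular matrix and is coupled to the cytoskeleton inside the cell. In basal keratinocytes α6β4 anchors hemidesmosomes to laminin and to keratin filaments, whereas α3β1 binds the same laminin and α2β1 binds collagen, both at actin-linked adhesions. The subunits αv, β5, β6 and β8 and the fibronectin receptor α5β1 are known from cells that migrate, spread or repair a wound, and αvβ6 and αvβ8 also activate latent TGF-β. Raising the calcium concentration drives keratinocytes to build cell-cell junctions and to differentiate, and integrins are typically reduced as the cells leave the basal layer.

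Promoter sequence is shown for Itgb5, Itgav and Itgb6, since these were the integrins called lower in PKP4-KO cells under all 4 culture conditions. Each run covers 250 bases before to 50 bases after a RefSeq start site in the GRCm38.p6 build, 5′ to 3′, and the capitals mark Sp1 motifs (GGGCGG on either strand).
Itgb5, chr16:33829415-33829714, plus strand: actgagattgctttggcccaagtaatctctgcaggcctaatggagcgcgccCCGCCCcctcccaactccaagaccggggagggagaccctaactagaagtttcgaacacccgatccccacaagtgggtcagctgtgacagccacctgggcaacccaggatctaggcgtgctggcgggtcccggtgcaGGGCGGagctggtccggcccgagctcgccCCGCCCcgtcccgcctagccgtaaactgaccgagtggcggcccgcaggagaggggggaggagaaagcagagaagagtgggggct
Itgav, chr2:83724147-83724446, plus strand: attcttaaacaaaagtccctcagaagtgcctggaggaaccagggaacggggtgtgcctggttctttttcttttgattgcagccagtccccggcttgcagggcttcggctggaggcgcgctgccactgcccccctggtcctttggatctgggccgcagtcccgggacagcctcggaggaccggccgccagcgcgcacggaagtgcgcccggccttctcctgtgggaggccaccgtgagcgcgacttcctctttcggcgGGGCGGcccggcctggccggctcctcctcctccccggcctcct
Itgb6, chr2:60722554-60722853, minus strand: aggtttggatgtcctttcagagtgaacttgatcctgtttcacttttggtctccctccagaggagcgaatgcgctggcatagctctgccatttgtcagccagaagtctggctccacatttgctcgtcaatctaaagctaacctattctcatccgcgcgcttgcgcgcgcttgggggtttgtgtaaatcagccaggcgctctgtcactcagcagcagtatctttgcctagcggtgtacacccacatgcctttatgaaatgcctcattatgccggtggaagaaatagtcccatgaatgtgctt
The Itgb5 window held 3 Sp1 motifs, the Itgav window held 1, and the Itgb6 window held 0. None of the 3 windows shown held an AP-1 motif (TGANTCA) or a TEAD motif (GGAATG on either strand). A further RefSeq window of Itgb6 (chr2:60673644-60673943, minus strand), not shown, held 0 motifs of each kind. Across 32851 mouse promoter windows of the same length, 35.7% held the Sp1 motif, 7.81% the AP-1 motif and 14.7% the TEAD motif. RefSeq windows were at hand for 8 of the 10 integrins, Itga6 and Itgb4 being the others.

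The libraries held 13602728 to 22467187 counted reads. Levels are given as CPM, counts scaled to a fixed library total after TMM scaling, where the TMM factor aligns the bulk of genes between libraries. The targeted transcript matched the labels, since mean Pkp4 in PKP4-KO cells was 12.6% to 27.5% of WT in the 4 conditions, with an exact two-sided permutation p = 0.1 each, the smallest that 3 against 3 allows. The transgene had 1902 to 15325 reads in Rescue libraries and 0 to 113 in the others. The PKP4-KO libraries at 72 h in HCM stood apart, with TMM factors of 0.481 to 0.546 in a full range up to 1.39. In LCM the PKP4-KO factors also lay below those of WT. They were 0.928 to 1.18 against 1.20 to 1.39 at 24 h, and 0.733 to 0.933 against 1.02 to 1.17 at 72 h. At 24 h in HCM the factors overlapped. In PKP4-KO cells at 72 h in HCM the summed suprabasal markers (6 genes, all with reads, Krt1 and Krt10 among them) reached 23077 to 24870.2 CPM, against 4153 to 11152 CPM in WT. Ivl of the same list went the other way, at 17.3 to 23.4 CPM against 124 to 154 CPM in WT. Mean levels of the basal markers Krt5, Krt14, Krt15 and Trp63 were 14903, 37759, 1069 and 59.3 CPM in these PKP4-KO libraries. In WT they were 13453, 35309, 125 and 67.8 CPM. All 10 keratinocyte markers had reads in every group, while 8 fibroblast markers, of which up to 5 had no read in a group, summed to 1.18 to 8.05 CPM in PKP4-KO cells and 16.3 to 32.8 CPM in WT and Rescue cells. Col1a1 and Col3a1 of that list were near 0 in WT too, with group means of at most 0.782 and 0.182 CPM. Other members thus carried most of the WT sum. Mean Col1a1 was higher in PKP4-KO than in WT at 24 h in HCM and 72 h in LCM, and lower in the other conditions. In bulk RNA a lower share of a cell type and less RNA per cell cannot be told apart, and the part of these shifts in the integrin results was not tested.

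The integrins spanned a wide range of abundance. On the scale of CPM per kilobase of the deposited gene length, used to set genes side by side, the order in WT cells at 24 h in LCM was Itgb1 (52.9 ± 7.82), Itga3 (40.9 ± 4.55), Itgb4 (33.8 ± 2.43), Itga6 (28.9 ± 2.66), Itgb5 (19.1 ± 2.1), Itgb6 (5.03 ± 0.231), Itgav (1.89 ± 0.210), Itga5 (1.1 ± 0.144), Itga2 (0.468 ± 0.133) and Itgb8 (0.0193 ± 0.0290), as mean ± SD of 3 libraries. In that order Itgb1 and Itga3, and likewise Itgb4 and Itga6, differed by less than their summed SDs. The laminin-binding and collagen-binding subunits Itgb1, Itga3, Itgb4 and Itga6 and the vitronectin-receptor subunit Itgb5 therefore made up the abundant class. The order depends on the length used, and Itgb1 led in 5 of 12 groups by the deposited length and in 3 by the longest annotated transcript. The deposited length was 9142 bases for Itga6 and 4081 for Itgb1, against 4413 and 5011 for their canonical transcripts. Levels by canonical length, which would place Itga6 higher relative to Itgb1, were not computed. Itga2, the collagen-binding α subunit, was close to the limit of detection in several groups, and the TGF-β-activating subunit Itgb8 had at most 11 reads in a library. The subunit with the highest level per kilobase varied between Itgb1, Itga3, Itgb4 and Itgb5 among the groups.

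**Figure D1:**
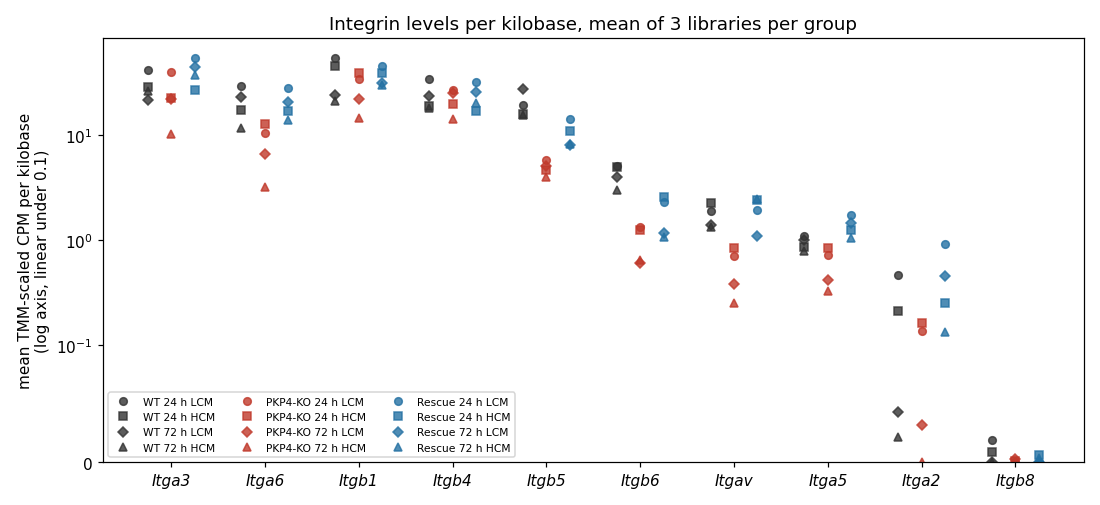
Mean TMM-scaled CPM per kilobase (log axis, linear under 0.1) for the 10 integrins in the 12 groups, each point the mean of 3 libraries, colour for genotype and shape for condition. Itgb5, Itgb6 and Itgav lie lower in PKP4-KO cells than in WT cells in each condition, and Itgb8 lies near 0 throughout.

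The first question was how the integrins of PKP4-KO cells differed from those of WT cells. The cells came from different mice, and the number of isolates of each kind is not given in the sources used here. Differences by genotype and by isolate therefore cannot be told apart. Of the 9 tested integrins, 4 fell at 24 h in HCM, 7 at 72 h in HCM, 6 at 24 h in LCM and 5 at 72 h in LCM (edgeR quasi-likelihood test, adjusted p under 0.05). In all 4 conditions 0 rose, with 0 also at an unadjusted p under 0.05 and 0 by DESeq2. Among all tested genes, 22.2%, 29.9%, 20.6% and 23.8% were called lower in the same order, and 20.7%, 21.9%, 19.7% and 21.3% were called higher. The median log2 fold change of the 8 tested integrins other than Itga2 was -0.38, -1.62, -1.03 and -1.53, beside -0.00, -0.07, 0.00 and 0.02 for all tested genes.

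Itgb5, the β partner of αv in a vitronectin receptor, was called lower in each condition. At 24 h in LCM it stood at 59.5, 73.6 and 70.9 CPM in the WT libraries and 18.4, 21.5 and 21.2 CPM in the PKP4-KO libraries. At 72 h in LCM the libraries gave 92.8, 97.0 and 97.8 CPM in the WT libraries and 17.3, 17.4 and 18.7 CPM in the PKP4-KO libraries. High calcium gave 55.7, 52.9 and 59.8 CPM in the WT libraries and 15.3, 16.9 and 16.7 CPM in the PKP4-KO libraries at 24 h, and 54.0, 51.4 and 58.8 CPM in the WT libraries and 12.3, 13.7 and 16.1 CPM in the PKP4-KO libraries at 72 h. Every PKP4-KO library thus lay below every WT library of its condition. The log2 fold change ± SE was -1.74 ± 0.13 at 24 h in LCM, -1.78 ± 0.13 at 24 h in HCM, -2.43 ± 0.13 at 72 h in LCM and -1.96 ± 0.13 at 72 h in HCM, with edgeR adjusted p from 9.71e-15 to 6.92e-12. Mean Itgb5 in PKP4-KO cells was 18.6% to 29.9% of WT.

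Itgb6, which pairs with αv to bind fibronectin and latent TGF-β, followed a like course at a lower level. At 24 h in LCM it was 33.9, 37.0 and 36.3 CPM in the WT libraries and 7.83, 8.79 and 11.8 CPM in the PKP4-KO libraries. At 72 h in LCM it was 25.8, 32.1 and 27.1 CPM in the WT libraries and 3.96, 4.70 and 4.25 CPM in the PKP4-KO libraries. The HCM libraries held 38.8, 29.1 and 36.7 CPM in the WT libraries and 8.53, 10.8 and 7.17 CPM in the PKP4-KO libraries at 24 h, and 20.7, 23.1 and 19.2 CPM in the WT libraries and 5.84, 4.51 and 3.52 CPM in the PKP4-KO libraries at 72 h. No PKP4-KO library reached a WT library of the same condition. The log2 fold change ± SE was -1.91 ± 0.20 at 24 h in LCM, -1.98 ± 0.20 at 24 h in HCM, -2.72 ± 0.21 at 72 h in LCM and -2.19 ± 0.21 at 72 h in HCM, with edgeR adjusted p of 7.52e-09 or below.

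Itgav, the shared α partner of β5, β6 and β8, was 22.8, 18.6 and 19.5 CPM in the WT libraries and 5.71, 8.13 and 8.99 CPM in the PKP4-KO libraries at 24 h in LCM. It was 32.8, 15.7 and 24.8 CPM in the WT libraries and 8.16, 12.3 and 6.35 CPM in the PKP4-KO libraries at 24 h in HCM. At 72 h the values were 12.7, 18.6 and 13.5 CPM in the WT libraries and 4.15, 3.19 and 5.10 CPM in the PKP4-KO libraries in LCM, and 16.2, 20.2 and 6.56 CPM in the WT libraries and 3.05, 2.76 and 2.27 CPM in the PKP4-KO libraries in HCM. WT libraries varied more than for Itgb5, yet the genotypes did not overlap. In WT cells at 72 h in HCM the order of the Itgav values followed that of the TMM factors (0.959, 0.980 and 0.705). In PKP4-KO cells at 72 h in HCM it did not (0.525, 0.481 and 0.546). The link between TMM factor and Itgav level was not tested. The log2 fold change ± SE of Itgav was -1.41 ± 0.36 at 24 h in LCM, -1.44 ± 0.36 at 24 h in HCM, -1.84 ± 0.37 at 72 h in LCM and -2.42 ± 0.41 at 72 h in HCM, with edgeR adjusted p from 1.7e-05 to 0.00233. The calls for Itgb5, Itgb6 and Itgav in the 4 conditions held when any 1 library was left out.

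Itga6, the laminin-binding partner of β4, was lower in PKP4-KO cells in 3 of 4 conditions. At 24 h in LCM it was 281, 237 and 276 CPM in the WT libraries and 55.2, 99.0 and 132 CPM in the PKP4-KO libraries, and at 72 h in LCM 178, 249.5 and 196 CPM in the WT libraries and 61.3, 45.5 and 74.5 CPM in the PKP4-KO libraries. In HCM at 72 h it was 125, 133 and 59.0 CPM in the WT libraries and 29.7, 27.8 and 29.4 CPM in the PKP4-KO libraries. These groups did not overlap, whereas at 24 h in HCM the values 190.0, 116 and 164 CPM in WT and 117, 139 and 90.8 CPM in PKP4-KO cells did. The log2 fold change ± SE was -1.47 ± 0.31 at 24 h in LCM, -0.44 ± 0.30 at 24 h in HCM, -1.78 ± 0.31 at 72 h in LCM and -1.87 ± 0.32 at 72 h in HCM, with edgeR adjusted p = 0.000372, 0.261, 3.74e-05 and 1.95e-05 in that order. Its hemidesmosomal partner Itgb4 was called in none of the 4 conditions by edgeR, although 2 of the 4 had an unadjusted p under 0.05, and its log2 fold change ± SE was -0.35 ± 0.15 at 24 h in LCM, 0.08 ± 0.15 at 24 h in HCM, 0.07 ± 0.15 at 72 h in LCM and -0.36 ± 0.15 at 72 h in HCM. Itgb4 stood at 218, 241 and 252 CPM in WT, 153, 171 and 233 CPM in PKP4-KO and 213, 242 and 206 CPM in Rescue libraries at 24 h in LCM, and at 123, 119 and 150.4 CPM in WT, 145, 136 and 132 CPM in PKP4-KO and 112, 119.8 and 118 CPM in Rescue libraries at 24 h in HCM. At 72 h it was 144, 188 and 163 CPM in WT, 137, 203 and 181 CPM in PKP4-KO and 180.0, 173 and 182 CPM in Rescue libraries in LCM, and 126, 126 and 129.6 CPM in WT, 118, 80.4 and 99.3 CPM in PKP4-KO and 142, 153 and 122 CPM in Rescue libraries in HCM. The genotypes WT and PKP4-KO overlapped in all but the last condition. Under DESeq2 the 24 h LCM value was called (-0.35, adjusted p = 0.041), and without TMM factors the 72 h LCM value turned to -0.33, uncalled. The difference between both subunits was not itself tested. Library sizes without TMM factors also gave a called Itgb4 log2 fold change of -1.12 at 72 h in HCM, where that scaling moved the median of all genes to -0.83.

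Itga5, the fibronectin-binding α subunit, fell at 72 h in both media. It was 5.82, 5.19 and 3.77 CPM in the WT libraries and 1.77, 2.77 and 1.60 CPM in the PKP4-KO libraries in LCM. In HCM it was 3.25, 4.05 and 4.31 CPM in the WT libraries and 1.27, 1.89 and 1.70 CPM in the PKP4-KO libraries. The genotypes did not overlap at 72 h, and the log2 fold change ± SE was -1.28 ± 0.26 (adjusted p = 0.000231) in LCM and -1.25 ± 0.29 (adjusted p = 0.000711) in HCM by edgeR. At 24 h it was -0.61 ± 0.25 (adjusted p = 0.0523) in LCM and -0.04 ± 0.25 (adjusted p = 1) in HCM. The 24 h LCM value was called under DESeq2, without TMM factors, with at least 10 reads in every library and without the PKP4-KO group at 72 h in HCM, and the 24 h HCM value was 0.034 without TMM factors.

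Itga3, the α subunit of the laminin receptor α3β1, fell strongly in 1 condition. At 72 h in HCM it was 148, 143 and 156 CPM in the WT libraries and 66.4, 54.8 and 51.7 CPM in the PKP4-KO libraries, without overlap, a log2 fold change ± SE of -1.37 ± 0.14 (adjusted p = 3.02e-09). At 24 h in HCM the edgeR result was -0.33 ± 0.13 (adjusted p = 0.048), and that call was lost without PKP4-KO 24 h HCM replicate 1, PKP4-KO 24 h HCM replicate 2, PKP4-KO 24 h HCM replicate 3 or WT 24 h HCM replicate 3 (largest adjusted p 0.335). In LCM the log2 fold change was -0.06 at 24 h and 0.01 at 72 h (-0.39 without TMM factors), neither of them called. Itga3 in LCM was 204, 241 and 255 CPM in WT, 189, 218 and 267 CPM in PKP4-KO and 287, 323 and 305 CPM in Rescue libraries at 24 h, and 120.1, 136 and 113 CPM in WT, 109, 138 and 125 CPM in PKP4-KO and 249, 240.4 and 257 CPM in Rescue libraries at 72 h, so WT and PKP4-KO libraries overlapped at both times. Itgb1, the common β subunit of the collagen, laminin and fibronectin receptors, was called lower at 24 h in LCM, with 247, 183 and 218 CPM in the WT libraries and 105, 146 and 162 CPM in the PKP4-KO libraries and a log2 fold change ± SE of -0.65 ± 0.24 (adjusted p = 0.0293). That call was lost without PKP4-KO 24 h LCM replicate 1, PKP4-KO 24 h LCM replicate 2, WT 24 h LCM replicate 1 or WT 24 h LCM replicate 3 (largest adjusted p 0.162). Elsewhere Itgb1 gave -0.24 at 24 h in HCM, -0.13 at 72 h in LCM and -0.54 at 72 h in HCM, and it was not called there.

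Itga2 was scarce. At 24 h in LCM it was 4.23, 3.44 and 2.34 CPM in the WT libraries and 0.493, 0.552 and 1.87 CPM in the PKP4-KO libraries, without overlap, a log2 fold change ± SE of -1.74 ± 0.51 (adjusted p = 0.00745) by edgeR. At 72 h in HCM all 3 PKP4-KO libraries had 0 reads and the WT libraries had 2, 6 and 0 reads, so both groups lay at or under the floor of 3 reads per library on average and no fold is given. edgeR called that difference (adjusted p = 0.0316), and the call was lost without PKP4-KO 72 h HCM replicate 1, PKP4-KO 72 h HCM replicate 2, PKP4-KO 72 h HCM replicate 3 or WT 72 h HCM replicate 2 and under DESeq2. The remaining Itga2 values were -0.39 at 24 h in HCM and -0.35 at 72 h in LCM, neither of them called.

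**Figure D2:**
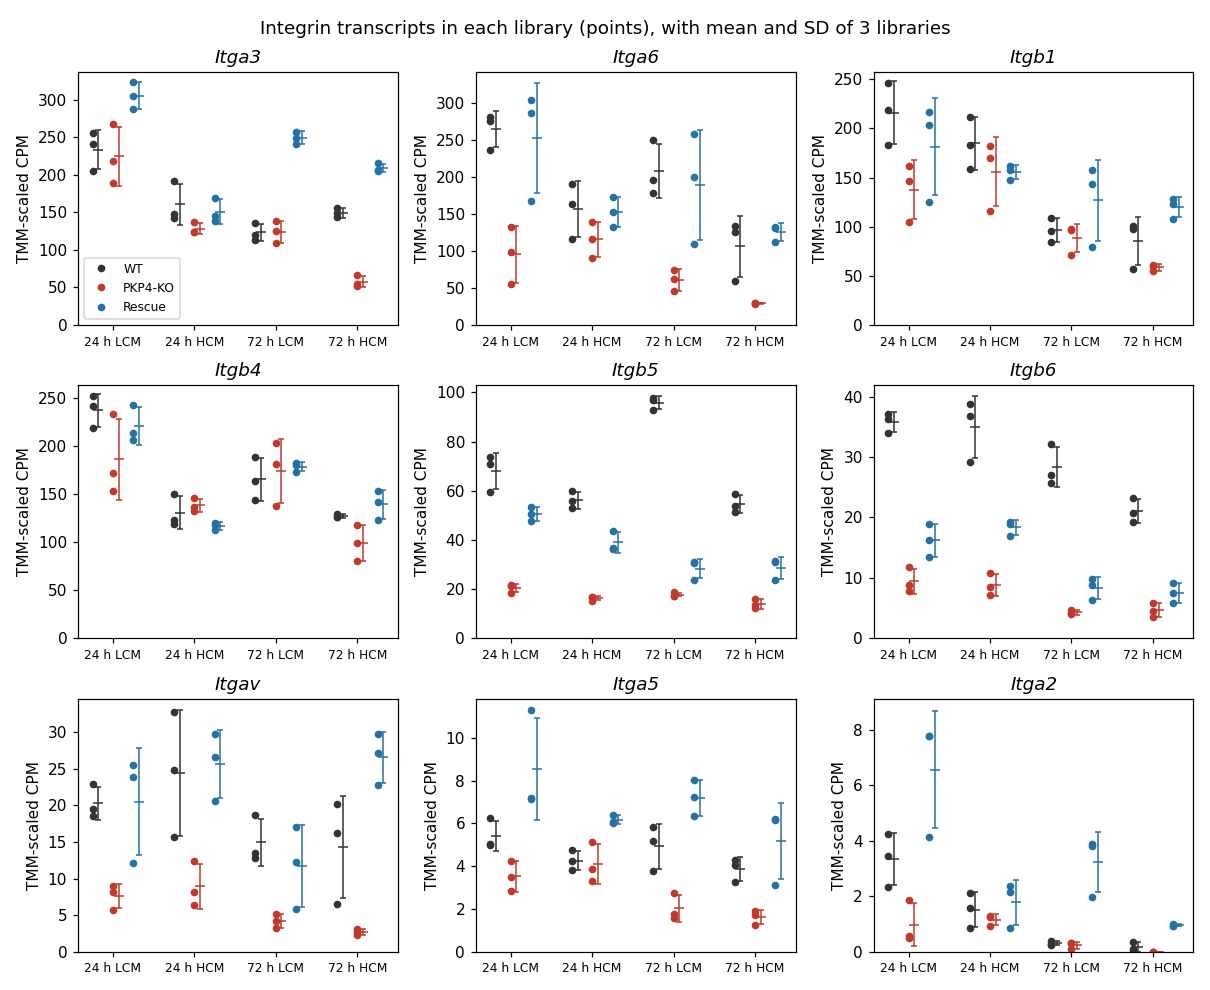
TMM-scaled CPM of the 9 tested integrins in each of the 36 libraries (points), with mean and SD of 3 libraries, by condition and coloured by genotype. The PKP4-KO points of Itgb5, Itgb6 and Itgav lie below the WT points in each condition, while those of Itgb4 mix with the WT points in 3 of the 4.

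Of the integrins, 3 lie on the chromosome of the targeted gene. Itgb6 (chr2:60428636-60553035, GRCm39), Itga6 (chr2:71575960-71689757) and Itgav (chr2:83554403-83637260) share chromosome 2 with Pkp4 (chr2:58991088-59185552). The gap between gene bodies was 1.24 Mb for Itgb6, 12.4 Mb for Itga6 and 24.4 Mb for Itgav. Tested genes within 5 Mb of Itgb6 (22 genes) had a median PKP4-KO against WT log2 fold change of -0.88, -1.07, -0.89 and -1.16 at 24 h in LCM, 24 h in HCM, 72 h in LCM and 72 h in HCM. Around Itga6 (67 genes) the medians were -0.46, -0.48, -0.48 and -0.66, and around Itgav (29 genes) -0.42, -0.29, -0.40 and -0.47. Around Itgb5, on chromosome 16, they were 0.01, -0.04, -0.02 and -0.13. In Rescue against PKP4-KO the genes around Itgb6 had medians of 0.68, 0.88, 0.46 and 1.54. Those around Itga6 had 0.19, 0.10, -0.001 and 0.59, and those around Itgav 0.29, 0.42, 0.34 and 0.44. In Rescue against WT the medians around Itgb6 were -0.10, -0.11, -0.28 and -0.09. The values of Itgb6 in that comparison were -1.14, -0.93, -1.76 and -1.48. Itgb6 itself moved further than the median of its neighbours in each PKP4-KO against WT comparison. In Rescue against PKP4-KO at 72 h in HCM it moved less than the 5 Mb median, at 0.71. Within 2 Mb (13 genes) the Rescue against PKP4-KO medians were 1.29, 1.17, 0.72 and 1.68 in the same order of conditions. Itgb6, at 0.77, 1.05, 0.96 and 0.71, moved less than these in every condition but 72 h in LCM. The spread of the neighbours was not compared. The part of position in these results was not tested.

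**Figure D3:**
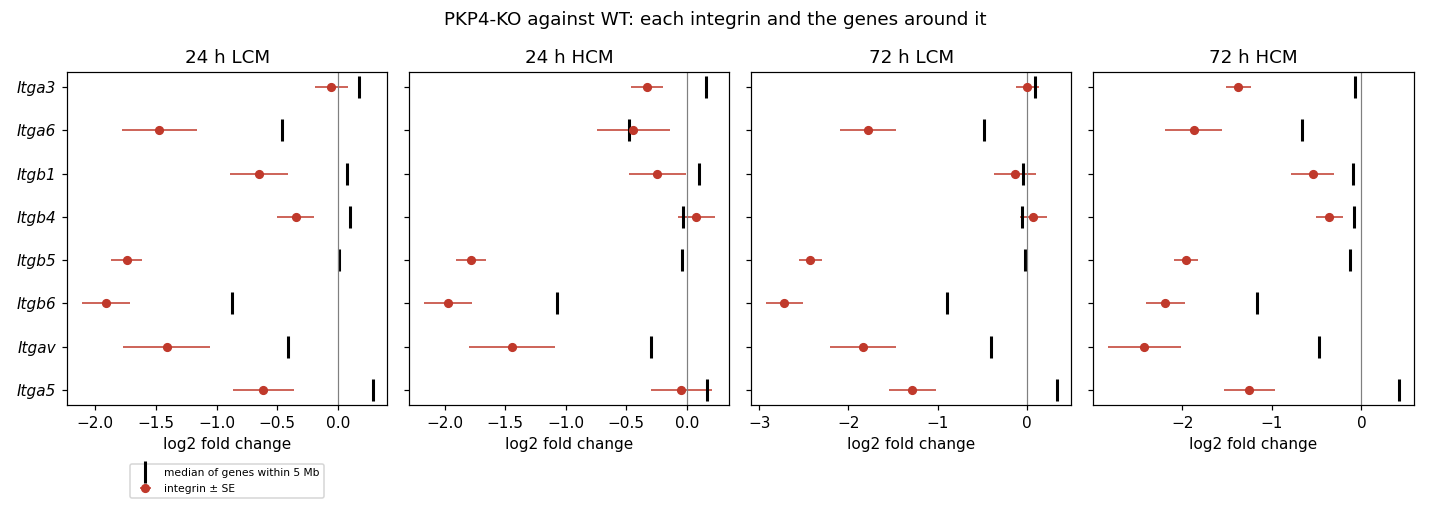
PKP4-KO against WT log2 fold change ± SE of 8 integrins (points) beside the median of the tested genes within 5 Mb of each (bars), by condition. The bars of Itgb6, Itga6 and Itgav lie below 0 in all 4 conditions, while the bar of Itgb5 lies near 0.

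The second question was how the integrins of Rescue cells, which express GFP-PKP4, compared with those of PKP4-KO cells. None of the 12 groups was a PKP4-KO line with an empty or GFP-only vector. Effects of GFP-PKP4, of transduction and of selection therefore cannot be told apart. Rescue cells had 3 integrins higher than PKP4-KO cells at 24 h in HCM, 9 at 72 h in HCM, 7 at 24 h in LCM and 7 at 72 h in LCM by edgeR. In all 4 conditions 0 were lower, with 0 also at an unadjusted p under 0.05 and 0 by DESeq2. Over all tested genes 21.7%, 37.2%, 18.2% and 23.3% were higher and 19%, 29.5%, 15.5% and 18.3% lower in the same order. These comparisons share the PKP4-KO libraries with the first set, so the same libraries enter both. At 72 h in HCM all genes had a median of 0.20, and the 8 integrins other than Itga2 a median of 1.36.

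Among the integrins other than Itga2, Itgav had the largest rise at 72 h in HCM, from 3.05, 2.76 and 2.27 CPM in the PKP4-KO libraries to 22.8, 27.1 and 29.7 CPM in the Rescue libraries, a log2 fold change ± SE of 3.30 ± 0.41 (adjusted p = 1.17e-07) by edgeR. Itga6 rose there from 29.7, 27.8 and 29.4 CPM to 112, 131 and 133 CPM, and Itga3 from 66.4, 54.8 and 51.7 CPM to 205, 216 and 207 CPM. In these 3 integrins each Rescue library exceeded each PKP4-KO library. Itgb5 was higher in Rescue cells in all 4 conditions, with 1.31 ± 0.13 at 24 h in LCM, 1.26 ± 0.13 at 24 h in HCM, 0.67 ± 0.13 at 72 h in LCM and 1.03 ± 0.13 at 72 h in HCM. Itgb6 was also higher in all 4, with 0.77 ± 0.19 at 24 h in LCM, 1.05 ± 0.20 at 24 h in HCM, 0.96 ± 0.20 at 72 h in LCM and 0.71 ± 0.21 at 72 h in HCM. Itga5 was higher in 3 conditions, reaching 1.83 ± 0.26 (adjusted p = 2.05e-06) at 72 h in LCM. Itga2, 0.493, 0.552 and 1.87 CPM in PKP4-KO cells at 24 h in LCM, was 7.78, 7.78 and 4.12 CPM in Rescue cells (2.72 ± 0.51, adjusted p = 0.000143). Itga2 was also, at 72 h in HCM, at least 2.47-fold higher in Rescue cells, set against a floor of 3 reads per PKP4-KO library. Itgav was 1.43 ± 0.36 at 24 h in LCM, 1.51 ± 0.36 at 24 h in HCM, 1.5 ± 0.37 at 72 h in LCM and 3.30 ± 0.41 at 72 h in HCM, and Itga6 rose in the conditions other than 24 h in HCM. Itgb1 was higher at 72 h in HCM alone, from 61.2, 59.9 and 54.4 CPM to 108, 123 and 128 CPM (1.03 ± 0.24, adjusted p = 0.000487). The Itga3 call at 24 h in LCM (0.44 ± 0.13, adjusted p = 0.0107) was lost without Rescue 24 h LCM replicate 2 or PKP4-KO 24 h LCM replicate 1. The Itgb4 call at 72 h in HCM (0.49 ± 0.15, adjusted p = 0.00697) was lost without PKP4-KO 72 h HCM replicate 2.

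Set against WT, the Rescue line did not match for every subunit. Itgb5 and Itgb6 were lower than WT in all 4 conditions. Itgb5 was 30.4, 23.7 and 31.0 CPM in Rescue cells at 72 h in LCM, against 92.8, 97.0 and 97.8 CPM in WT. Itgb6 was 9.86, 6.26 and 8.82 CPM there, against 25.8, 32.1 and 27.1 CPM. Neither overlapped, and the log2 fold change ± SE was -0.43 ± 0.12 at 24 h in LCM, -0.53 ± 0.12 at 24 h in HCM, -1.76 ± 0.13 at 72 h in LCM and -0.93 ± 0.12 at 72 h in HCM for Itgb5, and -1.14 ± 0.19 at 24 h in LCM, -0.93 ± 0.19 at 24 h in HCM, -1.76 ± 0.20 at 72 h in LCM and -1.48 ± 0.20 at 72 h in HCM for Itgb6. The Itgb5 call at 24 h in LCM was lost without Rescue 24 h LCM replicate 2 or WT 24 h LCM replicate 2, and at 24 h in HCM it was lost when TMM factors were left out. Itga3 was instead higher than WT at 72 h, with 1.02 ± 0.13 (adjusted p = 7.44e-07) in LCM and 0.49 ± 0.13 (adjusted p = 0.00557) in HCM. Its call at 24 h in LCM (0.39 ± 0.13, adjusted p = 0.0332) was lost without Rescue 24 h LCM replicate 2, Rescue 24 h LCM replicate 3, WT 24 h LCM replicate 1 or WT 24 h LCM replicate 2. Itga2 was called higher than WT at 72 h in both media, at 3.81, 1.99 and 3.88 CPM against 0.251, 0.396 and 0.273 CPM in LCM. In HCM the Rescue libraries had 20, 24 and 21 reads of Itga2 and the WT libraries 2, 6 and 0, a mean under the floor of 3 reads, so no fold is given there. The percentages of all genes called higher were 11.8%, 19.5%, 13.5% and 17.9%, and those called lower 11.4%, 16.7%, 11.4% and 14.6%, at 24 h in HCM, 72 h in HCM, 24 h in LCM and 72 h in LCM. The integrin counts, of 9 tested, were 0, 2, 1 and 2 higher and 2 lower in each. The counts higher at 72 h in HCM, 24 h in LCM and 72 h in LCM lay near the shares of all genes.

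**Figure D4:**
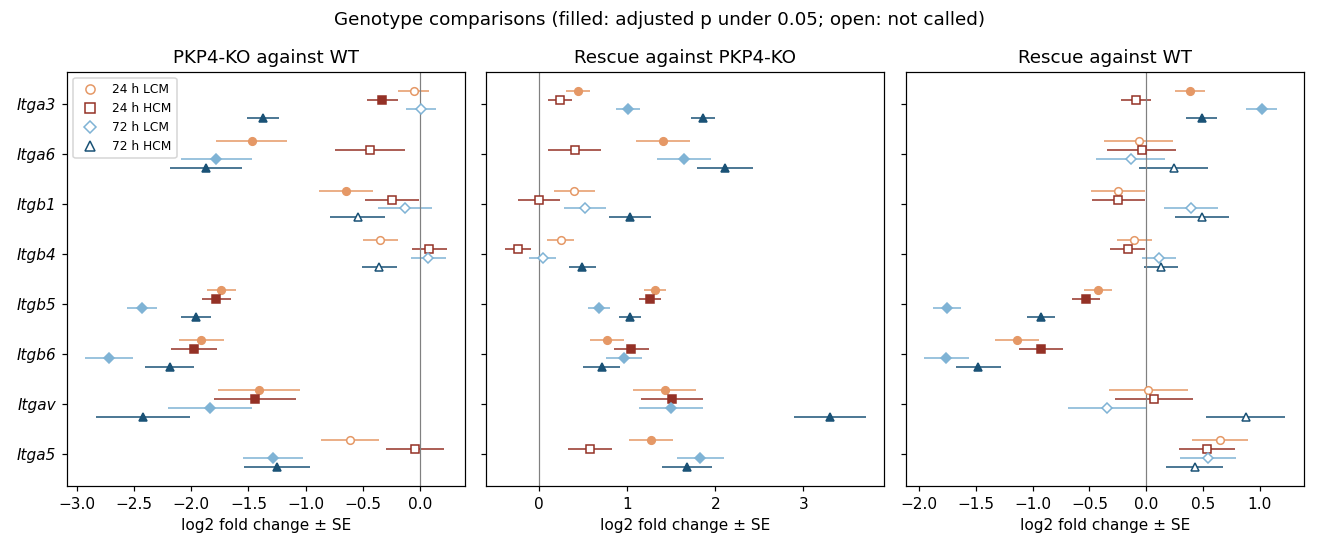
log2 fold change ± SE of 8 integrins in the 3 genotype comparisons, by condition, with filled symbols for adjusted p under 0.05 and open symbols for the rest. Itgb5 and Itgb6 lie below 0 in PKP4-KO against WT, above 0 in Rescue against PKP4-KO and below 0 in Rescue against WT in every condition.

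Calcium was the third variable. In WT cells HCM lowered Itga3 and Itgb4 at 24 h (background 6.48% lower and 7.69% higher) and Itga6 and Itgb5 at 72 h (background 10.8% lower and 10.6% higher). Itgb4 fell at 24 h from 218, 241 and 252 CPM to 123, 119 and 150.4 CPM, with no overlap, a log2 fold change ± SE of -0.86 ± 0.15 (adjusted p = 0.000171) by edgeR. Itgb5 fell at 72 h from 92.8, 97.0 and 97.8 CPM to 54.0, 51.4 and 58.8 CPM (-0.81 ± 0.12, adjusted p = 1.41e-05). The WT call for Itga6 (-0.97 ± 0.31, adjusted p = 0.0223) was lost without WT 72 h HCM replicate 3 or WT 72 h LCM replicate 2. PKP4-KO cells had 1 integrin lower in HCM at 24 h, Itga3 (-0.81 ± 0.13, adjusted p = 0.000503), against a background of 1.4% lower and 1.44% higher. At 72 h they had 5 lower, Itga2, Itga3, Itga6, Itgb4 and Itgb5, against 19.7% lower and 12.9% higher. Itga2 had 0 reads in the 3 HCM libraries and 5, 1 and 6 in the LCM libraries, a level under the floor after scaling, so its call gives no fold. The Itgb5 call was lost without PKP4-KO 72 h HCM replicate 1, PKP4-KO 72 h HCM replicate 2, PKP4-KO 72 h LCM replicate 1, PKP4-KO 72 h LCM replicate 2 or PKP4-KO 72 h LCM replicate 3, the Itga6 call without PKP4-KO 72 h LCM replicate 3, and the Itga2 call without PKP4-KO 72 h HCM replicate 1, PKP4-KO 72 h HCM replicate 2, PKP4-KO 72 h HCM replicate 3, PKP4-KO 72 h LCM replicate 1 or PKP4-KO 72 h LCM replicate 3. Of the other calls Itga3 was -1.10 ± 0.14 (adjusted p = 4.82e-07) and Itgb4 -0.81 ± 0.15 (adjusted p = 0.000192). The count of 5 dropped to 3 without PKP4-KO 72 h HCM replicate 1, PKP4-KO 72 h HCM replicate 2 or PKP4-KO 72 h LCM replicate 1, and to 2 without PKP4-KO 72 h LCM replicate 3. Rescue cells had Itga2, Itga3, Itgb4 and Itgb5 lower at 24 h (background 5.96% lower and 6% higher), a count that dropped to 2 without Rescue 24 h HCM replicate 2. The Itgb5 call there was lost without Rescue 24 h HCM replicate 2, Rescue 24 h HCM replicate 3, Rescue 24 h LCM replicate 1, Rescue 24 h LCM replicate 2 or Rescue 24 h LCM replicate 3, and the Itga2 call without Rescue 24 h HCM replicate 2. Itga3 in Rescue cells fell from 287, 323 and 305 CPM to 139, 169.5 and 145 CPM (-1.02 ± 0.13, adjusted p = 3.51e-06). At 72 h they had Itga2 lower and Itgav higher (background 12% lower and 13% higher). With 1 of 9 integrins each way, these shares lay near those of all genes. Itgav went there from 17.0, 5.89 and 12.2 CPM to 22.8, 27.1 and 29.7 CPM (1.17 ± 0.35, adjusted p = 0.0148), a call lost without Rescue 72 h HCM replicate 3 or Rescue 72 h LCM replicate 2.

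Culture time was the fourth. From 24 h to 72 h in HCM, PKP4-KO cells had 8 of 9 integrins lower, all but Itgb5, where 31.4% of all genes were lower and 24.3% higher. Itga6 went from 117, 139 and 90.8 CPM to 29.7, 27.8 and 29.4 CPM (-1.99 ± 0.32, adjusted p = 7.43e-06 by edgeR). Itgb1 went from 170.0, 182 and 116 CPM to 61.2, 59.9 and 54.4 CPM (-1.42 ± 0.24, adjusted p = 1.81e-05). The ranges did not overlap for either subunit. Itgb4 was the weakest of the 8 (-0.47 ± 0.15, adjusted p = 0.0104), a call lost without PKP4-KO 72 h HCM replicate 2. Itga2 was at least 3.01-fold lower at 72 h, set against a floor of 3 reads per library. In LCM the same cells had 5 integrins lower, Itga2, Itga3, Itga5, Itgb1 and Itgb6 (background 13.7% lower and 12.4% higher). The Itga2 call was lost without PKP4-KO 72 h LCM replicate 2 or PKP4-KO 24 h LCM replicate 3, the Itga5 call without PKP4-KO 72 h LCM replicate 1, PKP4-KO 72 h LCM replicate 3, PKP4-KO 24 h LCM replicate 2 or PKP4-KO 24 h LCM replicate 3, and the Itgb1 call without PKP4-KO 72 h LCM replicate 1, PKP4-KO 72 h LCM replicate 2, PKP4-KO 72 h LCM replicate 3, PKP4-KO 24 h LCM replicate 2 or PKP4-KO 24 h LCM replicate 3. The count of 5 dropped to 3 without any 1 of the 3 PKP4-KO 72 h LCM libraries or PKP4-KO 24 h LCM replicate 2, and to 2 without PKP4-KO 24 h LCM replicate 3.

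WT cells had 3 integrins lower with time in HCM, Itga2, Itgb1 and Itgb6 (background 8.69% lower and 9.16% higher). In LCM they had 4 lower, Itga2, Itga3, Itgb1 and Itgb4, and Itgb5 higher (background 4.66% lower and 5.29% higher). Itgb1 fell from 247, 183 and 218 CPM to 84.6, 109 and 95.9 CPM in LCM (-1.16 ± 0.24, adjusted p = 0.00158 by edgeR), without overlap. The rise of Itgb5 (0.49 ± 0.12, adjusted p = 0.00824) was lost without WT 24 h LCM replicate 1, and the fall of Itgb4 (-0.52 ± 0.15, adjusted p = 0.0262) was lost without WT 72 h LCM replicate 1, WT 72 h LCM replicate 3, WT 24 h LCM replicate 2 or WT 24 h LCM replicate 3. Rescue cells had Itgb5 and Itgb6 lower with time in both media, against a background of 2.96% lower and 6.84% higher in LCM and 10.7% lower and 13.6% higher in HCM. Itgb6 fell by the more in HCM, from 19.2, 17.0 and 18.8 CPM to 7.55, 5.88 and 9.23 CPM (-1.28 ± 0.20, adjusted p = 1.49e-05). Itga3 was higher at 72 h in HCM (0.47 ± 0.13, adjusted p = 0.00944), and this call and that of Itgb5 were both lost without Rescue 24 h HCM replicate 1, the Itgb5 call also without Rescue 72 h HCM replicate 3. With 1 of 9 integrins higher there, the share lay near the 13.6% of all genes.

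**Figure D5:**
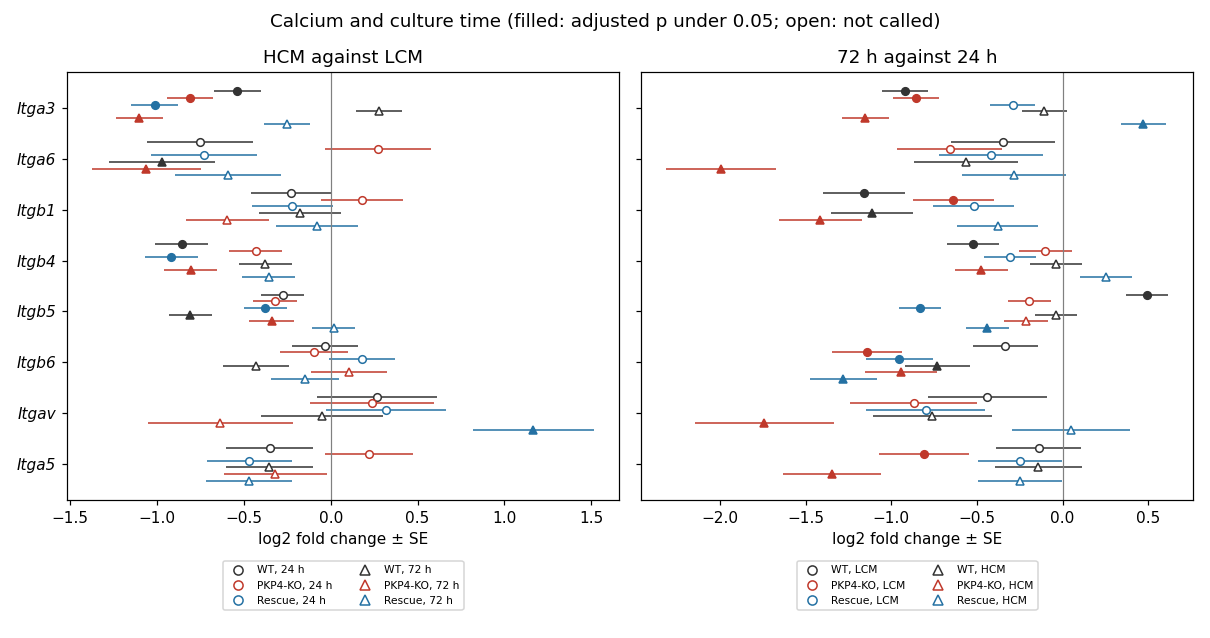
log2 fold change ± SE of 8 integrins for HCM against LCM (left) and 72 h against 24 h (right), coloured by genotype, with filled symbols for adjusted p under 0.05. In PKP4-KO cells in HCM (red triangles, right) 7 of the 8 symbols are filled and lie below 0.

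Whether PKP4-KO and WT cells responded differently was tested with an interaction term in the edgeR model. For calcium at 24 h 0 integrins were called by edgeR, 1 had an unadjusted p under 0.05 and 0 were called by DESeq2 (background 1.23% higher and 2.79% lower), as against 1 at 72 h (background 1.85% higher and 3.88% lower), Itga3. Itga3 was 120.1, 136 and 113 CPM in LCM and 148, 143 and 156 CPM in HCM in WT cells at 72 h, and 109, 138 and 125 CPM and 66.4, 54.8 and 51.7 CPM in PKP4-KO cells. In WT cells the HCM values lay above those of LCM, and in PKP4-KO cells they lay below, without overlap, and the difference of the responses was -1.38 ± 0.19 (adjusted p = 1.94e-05). Taken alone, the WT rise was not called, whereas the PKP4-KO fall was. For time in LCM Itgb5 was called (background 3.43% higher and 1.82% lower), at -0.69 ± 0.18 (adjusted p = 0.0161), a call lost without WT 24 h LCM replicate 1. For time in HCM 3 integrins fell further in PKP4-KO cells (background 10.8% higher and 15.8% lower), namely Itga3 (-1.04 ± 0.19, adjusted p = 0.000126), Itga6 (-1.43 ± 0.44, adjusted p = 0.0149) and Itga5 (-1.21 ± 0.38, adjusted p = 0.0195). The Itga6 call was lost without WT 72 h HCM replicate 2 or WT 24 h HCM replicate 2, and the Itga5 call without PKP4-KO 72 h HCM replicate 1 or PKP4-KO 24 h HCM replicate 1. Beside these stand the suprabasal markers and TMM factors of PKP4-KO cells at 72 h in HCM given above, whose part was not tested.

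Genes that work with integrins were counted in the same way, in PKP4-KO against WT at 24 h in HCM, 72 h in HCM, 24 h in LCM and 72 h in LCM. In that order 22.2%, 29.9%, 20.6% and 23.8% of all tested genes were called lower and 20.7%, 21.9%, 19.7% and 21.3% higher, against which each list is read. Of 26 ligand genes (20 tested), 11, 13, 14 and 13 were lower and 3, 0, 1 and 1 higher. The genes that led were Col4a2 and Col4a1, the chains of basement membrane collagen IV, and Ccn2, a matricellular protein. At 24 h in LCM Col4a2 had a mean of 0.190 CPM in PKP4-KO cells and 36.8 CPM in WT cells (-7.61 ± 0.40, edgeR adjusted p = 8.13e-15), and Ccn2 1.15 CPM and 124 CPM. These 3 genes also led in the other 3 conditions. The median of the tested ligands was -1.39, -1.41, -1.70 and -0.88. Of 27 activators and adaptors (26 tested), 7, 16, 11 and 5 were lower and 6, 1, 5 and 5 higher, so that the lower share lay near that of all genes at 24 h in HCM and at 72 h in LCM. Fermt2, which encodes the integrin activator kindlin-2, was lower in the 4 conditions, for example -3.65 ± 0.58 at 24 h in HCM. Tns3, an adaptor at actin-linked adhesions, was -3.06 ± 0.26 at 72 h in LCM. The median of the list was -0.07, -0.76, -0.20 and -0.15. Tln2, a talin that links integrins to actin, was higher at 24 h in HCM (2.58 ± 0.18).

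Of 7 hemidesmosome and tetraspanin partners, all tested, 3, 2, 2 and 3 were lower and 1, 2, 1 and 1 higher, and the lower share at 72 h in HCM lay near that of all genes. Dst, the hemidesmosomal plakin BPAG1, was -2.16 ± 0.35 at 72 h in HCM, and Col17a1, a collagen of the hemidesmosome, -1.02 ± 0.13 at 72 h in LCM, whereas Plec, the plectin that binds β4, was 1.15 ± 0.14 at 24 h in HCM. The median of the list was -0.65, 0.05, -0.45 and -0.29. Of 3 inhibitors 1, 1, 2 and 1 were higher, with list medians of 0.48, -0.03, 0.56 and 0.21, and Itgb1bp1, which restrains β1, was higher in each condition, from 0.56 ± 0.15 to 0.72 ± 0.15. Of 16 other integrin subunits 5 had enough reads to be tested, with 2, 1, 1 and 1 lower and 2, 2, 1 and 2 higher and medians of 1.02, 0.12, 0.02 and 0.93. Itgb7, a leukocyte-type β subunit, went from a mean of 23.1 CPM in WT cells to 1.27 CPM in PKP4-KO cells at 72 h in HCM (-4.18 ± 0.29) and to 53.1 CPM in Rescue cells. Immune cell markers (7 genes) summed to at most 4.68 CPM in any library.

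Across the 12 group means of log2 CPM the integrins varied with one another to different degrees, which is given as a description since a gene's 12 values share 1 scaling and come from cells of 3 kinds. The closest pairs were Itgb5 with Itgb6 (Pearson r = 0.91) and Itga5 with Itga6 (r = 0.91), and the least alike were Itgav and Itgb4 (r = 0.22). Without the PKP4-KO group at 72 h in HCM the value was 0.89 for Itgb5 and Itgb6, 0.85 for Itga5 and Itga6, and -0.18 for Itgav and Itgb4, the last with its sign turned. Among all tested protein-coding genes the most similar to Itgb5 was Pla2r1 (r = 0.971), which lies beside Itgb6 on chromosome 2, to Itgb6 Anapc4 (0.973), to Itgav Atp13a3 (0.984) and to Itga5 Il17re (0.988). For Itgb4 it was Pxn (0.939), for Itgb1 Ttk (0.944), for Itga3 Dock5 (0.969) and for Itga2 Fat1 (0.927). Pla2r1 had group means of only 0.1 to 2.92 CPM, and 0.5 CPM was added before taking logs, so its r depends on that constant. Genes with r over 0.9 numbered 95 for Itgb5 and 507 for Itgav, but 3 for Itgb4. The summed level of the 10 integrins was highest in WT cells at 24 h in LCM (1084 ± 48.7 CPM, SD, n = 3), within the SD of Rescue cells at 24 h in LCM (1062 ± 141 CPM, SD, n = 3), and lowest in PKP4-KO cells at 72 h in HCM (267 ± 27.3 CPM, SD, n = 3).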

How the data were processed

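Raw read counts per gene were deposited by the authors, who, per the labels and the study's methods, aligned strand-specific paired reads with HISAT2 2.1.0 to mm39 joined to the transgene sequence, used SAMtools 1.10 to drop secondary alignments and counted with featureCounts 2.0.0. The strand setting of the counting is not given in the sources used here. The deposited gene length was used for levels per kilobase. Counts were filtered with filterByExpr, scaled by TMM and fitted in edgeR 4.0.16 (R 4.3.3) as 1 quasi-likelihood model of 12 groups, with Benjamini-Hochberg adjustment over 15114 genes and a threshold of 0.05. The SE is the log2 fold change divided by the square root of F. DESeq2 1.42.0, other scalings, filters and fits, and leaving out each library were alternatives. The fit was tested on simulated data, where changes in genes with few reads, the range of Itga2 in several groups, were often missed. The limit it had to pass was restricted to better-covered genes after a first run fell short. Within groups, libraries differed by a chi-square per gene of 7.03 or more, so none was a copy. Gene positions came from GENCODE on GRCm39, a later release than the authors used. All 10 integrins are named, and from each partner list at most 3 called genes per comparison with the largest change and no overlap, plus Pkp4, the transgene and the gene most like each integrin, of which that for Itga6 is not reported here. The integrins and lists were chosen with earlier results of these data known. Depth was 13602728 to 22467187 reads per library, and floors of 3 reads cover counting error only.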

Additional observations from a re-analysis of the deposited data

Results flagged for a closer look

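In 5 cases the response of an integrin differed between PKP4-KO and WT cells by the interaction term of the edgeR model, each value being the PKP4-KO response minus the WT response in log2 units. To calcium at 72 h, Itga3 differed by -1.38 (adjusted p = 1.94e-05). Over time in HCM, Itga3 differed by -1.04 (adjusted p = 0.000126), Itga6 by -1.43 (adjusted p = 0.0149) and Itga5 by -1.21 (adjusted p = 0.0195). Over time in LCM, Itgb5 differed by -0.69 (adjusted p = 0.0161). In 4 of the 5 the PKP4-KO cells at 72 h in HCM, whose TMM factors stand apart, are 1 of the 4 groups in the term.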

How the results depend on the processing

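None of the 4 PKP4-KO against WT counts or the 4 Rescue against PKP4-KO counts of called integrins moved by over 1.5 times under the settings run, which were DESeq2, no TMM factors, no filter, at least 10 reads in every library, the compared groups alone, the replicate block, each library left out and, chosen after seeing the data, a fit without the PKP4-KO group at 72 h in HCM. The cause of the changes below was not tested. Without TMM factors the median of all genes moved from -0.07 to -0.83 in PKP4-KO against WT at 72 h in HCM, and the higher share of the calls from 42.2% to 13.5%. The counts of called integrins became 1 and 8 in Rescue against WT at 24 h and 72 h in HCM, 4, 8 and 1 in HCM against LCM at 72 h in WT, PKP4-KO and Rescue cells, 8 in 72 h against 24 h in PKP4-KO cells in LCM, and 0 and 9 for the time response in LCM and HCM. That scaling gave log2 fold changes of 0.034 for Itga5 at 24 h in HCM, and of -0.33 for Itgb4 and -0.39 for Itga3 at 72 h in LCM, against WT, each opposite in sign and uncalled. Summed integrin levels without TMM were 774 CPM, 755 CPM and 1235 CPM in Rescue cells at 72 h in HCM, 24 h in HCM and 24 h in LCM, 138 CPM and 397 CPM in PKP4-KO cells at 72 h in HCM and LCM, and 1378 CPM in WT cells at 24 h in LCM.

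Without a filter the counts became 1 in Rescue against WT at 24 h in LCM, 3 and 3 over time in WT and PKP4-KO cells in LCM and 0 for the time response in LCM, and Itga3 became -0.015 in PKP4-KO against WT at 72 h in LCM. With at least 10 reads in every library they became 3 and 1 for calcium at 72 h in PKP4-KO and Rescue cells and 3 over time in PKP4-KO cells in LCM, with fewer integrins tested. With the compared groups alone, and fewer residual degrees of freedom, they became 1, 1 and 0 for calcium in WT cells at 24 h, WT cells at 72 h and PKP4-KO cells at 24 h, 0, 2, 1 and 5 over time in WT HCM, PKP4-KO LCM, Rescue LCM and Rescue HCM, and 0 for the time response in LCM. DESeq2 gave 2 for the calcium response at 72 h. Per kilobase of the longest transcript Itgb1 led in 3 groups. Within 2 Mb the PKP4-KO against WT medians around Itgb6 were -1.30 at 24 h in HCM and -1.09 at 72 h in LCM, around Itga6 -0.60 at 24 h in HCM and -0.77 at 24 h in LCM, and around Itgav -0.59 at 24 h in HCM.

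With each library left out in turn the counts ranged from 1 to 2 (Rescue 72 h), 2 to 4 (Rescue 24 h), 2 to 5 (PKP4-KO 72 h) and 1 to 3 (WT 72 h) for calcium, 1 to 3 (Rescue HCM) and 2 to 6 (PKP4-KO LCM) over time, 0 to 1 for the time response in LCM and 1 to 4 in Rescue against WT at 24 h in LCM. The last fell to 1 without WT 24 h LCM replicate 2, the calcium count in Rescue cells at 72 h to 1 without Rescue 72 h HCM replicate 3, that in WT cells at 72 h to 1 without WT 72 h HCM replicate 3 or WT 72 h LCM replicate 2, the Rescue HCM time count to 1 without Rescue 24 h HCM replicate 1, and the time response in LCM to 0 without WT 24 h LCM replicate 1. Uncalled PKP4-KO against WT values that changed sign ranged from -0.21 to 0.0026 (Itgb1), -0.053 to 0.21 (Itgb4) and -0.077 to 0.091 (Itga3) at 72 h in LCM, -0.23 to 0.083 (Itga5) at 24 h in HCM and -0.20 to 0.056 (Itga3) at 24 h in LCM. A further 130 integrin values, uncalled and outside PKP4-KO against WT, changed sign in 29 of 877 refits under other settings and in 73 of 966 with a library left out.

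Replicate numbers showed no pairing of the samples. Same-numbered libraries of different groups deviated together with a median r of 0.0125 (72 of 198 pairs over 0.1). Libraries with different numbers gave a median r of 0.0273 (153 of 396 pairs over 0.1). In both sets r ran from -0.79 to 0.84, so some libraries of different groups shared deviations that the number does not mark. With the replicate block all 28 counts stayed within 1.5 times, and the Itgb5 calcium response of Rescue cells at 24 h was -0.37, no longer called. At this depth Itgb8, and Itga2 between PKP4-KO and WT cells at 72 h, could not be compared reliably.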
